A study of Mus musculus with 8 samples.

Results

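The genes described here are those of mitochondrial complex I whose symbols begin with Nduf. They were taken from a table of RNA sequencing counts as every row with such a symbol and a sum of at least 80 counts over the 8 libraries. This gave 42 genes of the 21165 rows of the table, and all 42 passed the filter on low counts that left 12699 genes for testing. They comprise 36 subunits, of which 7 are core and 29 accessory, the 4 assembly factors Ndufaf1 to Ndufaf4, and Ndufa4 and Ndufa4l2, which were held apart because the NDUFA4 protein is known as a subunit of complex IV.

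The libraries came from the whole cortex of mouse embryos at E18.5, 4 from a constitutive Nuak1 knockout (KO) and 4 from wild-type (WT) embryos. NUAK1 is a kinase of the AMPK-related family. The line was kept on a C57Bl/6JRj background. The gene is lost from all cells of the embryo and KO animals die at birth, so the comparison concerns a mixed tissue shortly before birth. The sample labels give 3 litters, whereas the design text of the series names 4, with 2 males among the KO and 1 among the WT embryos, but the count columns give only the genotype and a running number (R1 to R4), so a library was not tied to an embryo, a litter or a sex. Nothing in the column names pairs the libraries of the genotypes.

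Complex I, NADH:ubiquinone oxidoreductase, is the entry point of electrons from NADH into the respiratory chain. The core subunits of the matrix arm carry the flavin, the iron-sulphur clusters and the quinone site, the mitochondrial genome encodes the core of the membrane arm that pumps protons, and the accessory subunits surround and stabilise both arms. Assembly factors help to build the enzyme and are not part of the finished complex. Neurons depend on it for ATP, and inherited defects of its subunits are a common cause of Leigh syndrome.

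Totals ran from 9643711 to 27014858 counts per library, with WT R4 the shallowest and 12495226 in WT R3 and 12748423 in KO R1. The targeted gene followed the labels, with 11.1 to 20.5 normalized counts (counts scaled to a common library size) for Nuak1 in KO and 877 to 1445 in WT. All 7 projection neuron markers were detected, with a summed level of 37340 to 42190 normalized counts in KO and 32170 to 39540 in WT, and 4 of them were higher in KO, with log2 fold changes from -0.36 to 0.40 (before adjustment, 1 passed higher and 2 lower). KO R1 stood apart in its meningeal fibroblast markers, whose 9 genes summed to 10330 normalized counts there, against 340.6 in the lowest KO library and 277 to 383 in WT. The 8 endothelial markers, all higher in KO, summed to 2983 to 4633 in KO and 2743 to 3213 in WT. The 7 microglia markers were also all higher (median log2 fold change 0.15; sums of 525 to 1069 in KO and 517 to 740 in WT), whereas 0 of 6 interneuron markers (median -0.20; 2406 to 2688 and 2556 to 3233) and 1 of 8 progenitor markers (median -0.10; 21480 to 25610 and 19960 to 28710) were higher. Of 5 tested red blood cell markers 4 were higher (sums of all 6 of 1687 to 7059 in KO and 1591 to 3806 in WT), and the 5 choroid plexus markers were too low to be tested. The part of these markers in the values of complex I genes was not tested. In bulk tissue, fewer cells of a type and less RNA per cell cannot be told apart.

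Sequence shared by promoters of the members is shown first, since complex I genes lie on 16 chromosomes and are known to be served by common transcription factors. RefSeq promoter windows (GRCm38.p6, 250 bases before to 50 after the start) were found for 37 of the 42 members. The NRF1 motif (GCGC, any base, then TGCGC), searched on both strands, was in 8 of these 37 windows (21.6%), against 4.78% of 27025 windows of the same length. The 27025 windows were not matched to the members for base composition, gene type or expression. Whether promoters alike in these traits hold the motifs as often was not tested. The YY1 motif (AAGATGG followed by CGG) was in 4 (10.8% against 0.899%), and the ETS core CCGGAAG in 5 (13.5% against 9.12%). All 4 YY1 matches began 24 to 35 bases after the start, and whether they lie in coding sequence was not examined. The windows below were located in NCBIM37 by exact match and are printed on the strand of the gene, with the motif in capitals. Ndufa6 and Ndufb4 are shown because Ndufa6 had the second largest fold change among the subunits and Ndufb4 held the motif at 3 places, Ndufaf4 because it is an assembly factor, and Ndufs6 because it held both motifs.
Ndufa6, NRF1, chr15:82184679-82184708, minus strand: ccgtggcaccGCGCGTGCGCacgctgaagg
Ndufa11, NRF1, chr17:56857115-56857144, plus strand: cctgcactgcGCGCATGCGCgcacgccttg
Ndufaf4, NRF1, chr4:24825107-24825136, plus strand: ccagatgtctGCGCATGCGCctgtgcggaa
Ndufb4, NRF1 on the other strand, chr16:37654457-37654486, minus strand: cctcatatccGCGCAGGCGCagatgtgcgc
Ndufs6, NRF1, chr13:73465927-73465956, minus strand: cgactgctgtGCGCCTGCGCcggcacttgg
Ndufs6, YY1, chr13:73465881-73465907, minus strand: ggtcaccggcAAGATGGCGGcggtgct
Ndufs4, YY1, chr13:115178253-115178277, minus strand: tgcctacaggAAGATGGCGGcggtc
Ndufs7, YY1, chr10:79712208-79712237, plus strand: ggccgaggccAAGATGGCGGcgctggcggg
Ndufa9, YY1, chr6:126799114-126799143, minus strand: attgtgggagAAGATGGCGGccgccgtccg
Of the 11 members with an NRF1 or a YY1 match, 10 were higher in KO and the median of their log2 fold changes (KO over WT) was 0.09. Of the 26 without either, 21 were higher and the median was 0.14. These letters are a description of the windows and say nothing of binding.

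Levels were compared between genes as WT normalized counts per kilobase of transcript. A single transcript per gene gave the length, so ranks depend on the transcript chosen, such as those of 2661 bases for Ndufa11 and 3632 for Ndufaf4. The 6 core subunits described here lay within 2.15-fold of each other, from 861 ± 81 (SD, n = 4) for Ndufs8 to 1854 ± 34.1 for Ndufv1. The ranges of neighbours in the order Ndufs3, Ndufv2, Ndufs7 and Ndufs1 overlapped, whereas Ndufv1 lay above them and Ndufs8 below them without overlap. The 29 accessory subunits ran from 428 ± 47 for Ndufa11 to 2480 ± 199 for Ndufa7, and among them only Ndufab1 and the next lower gene, Ndufb4, were neighbours without overlap. The assembly factors were further apart, at 881 ± 73.2 for Ndufaf2, 425 ± 15 for Ndufaf3, 185 ± 28.1 for Ndufaf1 and 65 ± 2.28 for Ndufaf4, with no overlap between neighbours. Ndufaf2 lay within the range of the subunits and Ndufaf3 overlapped Ndufa11, whereas Ndufaf1 and Ndufaf4 lay below all subunits. Ndufa4 was the highest member at 6988 ± 959 and its paralog Ndufa4l2, known from hypoxia and vessel-associated cells, the lowest at 47.1 ± 4.35.

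**Figure D1:**
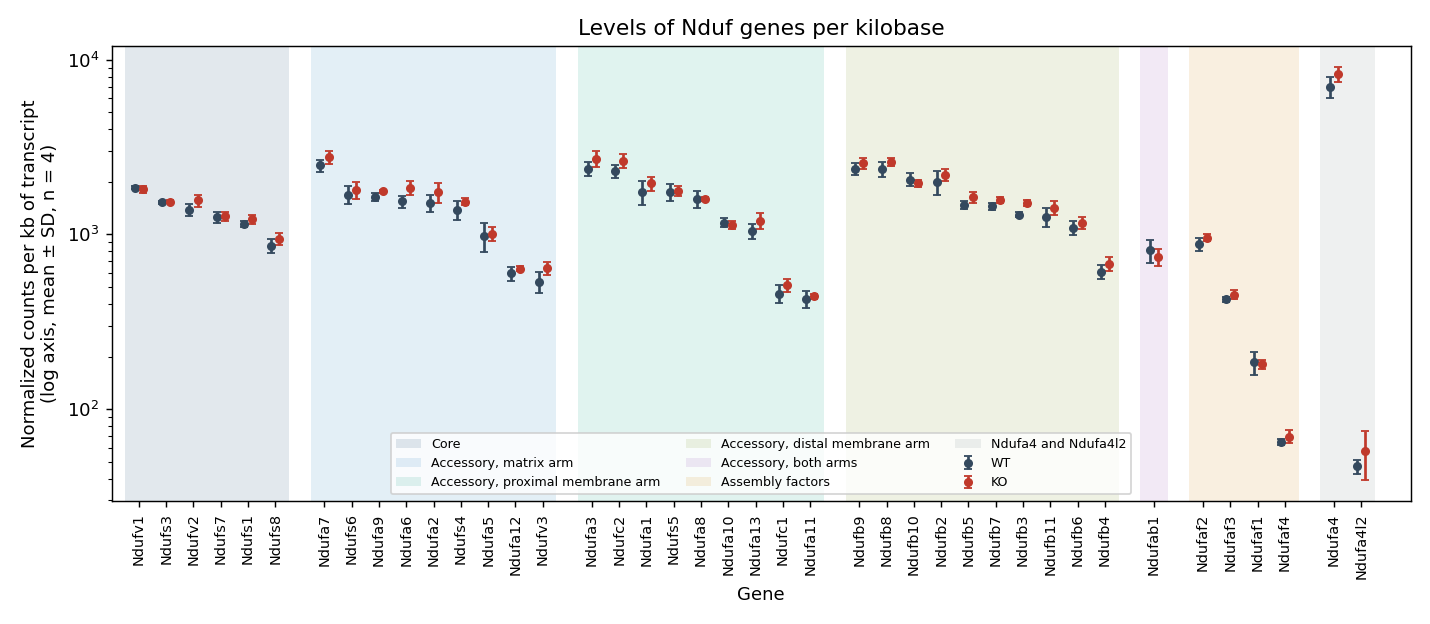
Normalized counts per kilobase of transcript (log axis) for 41 of the 42 genes, in WT and KO (points: mean of 4 libraries, bars: SD), shaded by role. Subunits lie within about the same range in every arm, Ndufa4 lies above all of them, and Ndufaf4 and Ndufa4l2 are lowest.

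No member passed an adjusted p of 0.05 in the comparison of KO with WT by the quasi-likelihood test of edgeR, against 0.0709% of all genes tested (9 genes), and the lowest adjusted p among members was 0.394, for Ndufb3. DESeq2 also called 0, with a lowest adjusted p of 0.0843. Before adjustment, 9 members passed a p of 0.05, all of them higher in KO (12 with DESeq2, where 4.58% of all genes passed in that direction), against 4.51% of all genes tested in that direction and 3.18% in the other. Of these 9, Ndufa6 and Ndufv3 also passed a log2 fold change of 0.25, a threshold that with the same p was met by 2.45% of genes higher in KO and by 1.8% lower in KO. Of the 42 members, 35 had a log2 fold change above 0, against 45.6% of all genes, and the median was 0.12, against -0.01 for all genes. The members' range was narrow, from -0.12 for Ndufab1 to 0.26 for Ndufv3.

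**Figure D2:**
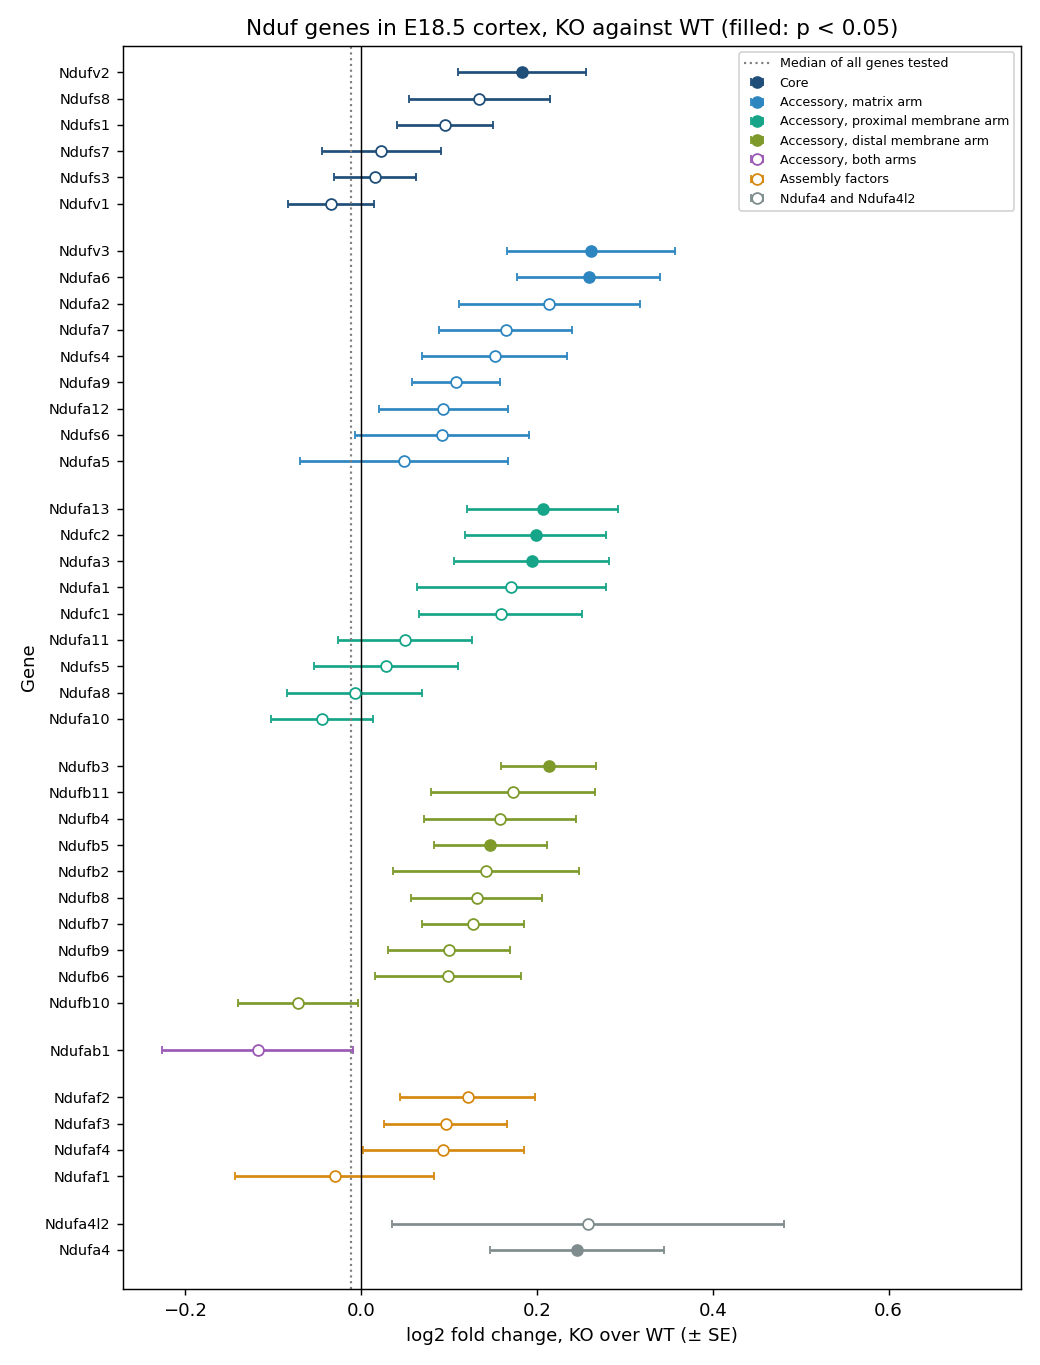
Log2 fold change of KO over WT with its SE for 41 of the 42 genes, grouped by role (filled points: unadjusted p under 0.05, dotted line: median of all 12699 genes tested). Most points lie to the right of 0 at values up to 0.26, the accessory subunits more so than the core, and Ndufab1 and Ndufb10 lie furthest to the left.

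Among the core subunits, which do the chemistry of the matrix arm, 5 of 7 were higher in KO, with a median log2 fold change of 0.02, and 1 passed a p of 0.05. Ndufv2, which holds an iron-sulphur cluster beside the flavin (chr17:66428135-66450899), had 2469, 2150, 2615 and 2406 normalized counts in KO R1 to R4 and 2044, 2218, 1936 and 2307 in WT R1 to R4. The genotypes overlapped, since KO R2 lay below WT R2 and R4. Its log2 fold change was 0.18 ± 0.07 (SE; adjusted p = 0.629). Its partner Ndufv1, the subunit that binds NADH and the flavin, had 2821, 3016, 3040 and 3146 in KO and 3108, 3075, 3002 and 3132 in WT. Here KO R1 was the lowest library and the log2 fold change was -0.03 ± 0.05 (adjusted p = 0.907).

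Ndufs7, which carries the last iron-sulphur cluster before the quinone, had 969.9, 880.3, 1003 and 1002 normalized counts in KO and 1018, 952, 865 and 963 in WT. The genotypes interleaved, with WT R1 the highest library. Ndufs3, a scaffold of the quinone module, was the most even member over the KO libraries, with 1586, 1657, 1604 and 1603 in KO and 1543, 1628, 1593 and 1613 in WT. Its log2 fold change was 0.02 ± 0.05. A copy elsewhere in the genome matches 84.4% of its transcript at 98.5% identity, and copies also exist for Ndufs6 (84.7% at 96.3%) and Ndufb11 (64.1% at 97.3%). Some reads of these genes may thus be hard to assign, which was not measured.

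Ndufs1 and Ndufs8 carry iron-sulphur clusters along the electron path. Ndufs1, the larger protein, had 3354, 3036, 3436 and 3166 in KO and 2948, 3199, 2955 and 3061 in WT, with a log2 fold change of 0.10 ± 0.05 (adjusted p = 0.75). Ndufs8 had 903, 815, 977 and 931 in KO and 764, 869, 764 and 919 in WT, with 0.13 ± 0.08 (adjusted p = 0.763). KO R1 and R3 were above every WT library for Ndufs1, and KO R3 and R4 for Ndufs8.

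Of the 29 accessory subunits, 25 were higher in KO, with a median log2 fold change of 0.14, and 7 passed a p of 0.05. In the matrix arm all 9 accessory subunits were higher, from 0.05 for Ndufa5 to 0.26 for Ndufv3 (median 0.15). Ndufa6, a LYR-motif protein that anchors an acyl carrier protein on the arm (chr15:82180569-82184721), had 1156, 937, 1061 and 980.1 normalized counts in KO and 866, 877, 773 and 941 in WT. Only KO R2 fell under the highest WT library, R4, and the log2 fold change was 0.26 ± 0.08 (adjusted p = 0.522). Ndufv3, a small subunit attached to the flavoprotein (chr17:31657060-31668266), had 1130, 961, 968 and 975 in KO and 838, 769, 754 and 1010 in WT. WT R4 was above KO R2, R3 and R4, and the log2 fold change was 0.26 ± 0.10 (adjusted p = 0.584). Ndufa7, the accessory subunit with the highest level per kilobase, had 1512, 1242, 1438 and 1443 in KO and 1272, 1229, 1148 and 1390 in WT, and at 0.16 ± 0.08 it did not pass before adjustment (adjusted p = 0.652). Ndufs4, whose loss in mice is a model of Leigh syndrome, had a log2 fold change of 0.15 ± 0.08 (adjusted p = 0.725), and none of its KO libraries exceeded WT R4.

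In the proximal membrane arm 7 of 9 accessory subunits were higher, with a median log2 fold change of 0.16, and Ndufc2, Ndufa13 and Ndufa3 passed a p of 0.05. Ndufc2 (chr7:104548513-104556312), a small membrane subunit, had 1913, 1590, 1939 and 1779 in KO and 1522, 1691, 1400 and 1687 in WT. KO R2 lay below WT R2 and R4, and the log2 fold change was 0.20 ± 0.08 (adjusted p = 0.629). Ndufa13, also known as GRIM-19 (chr8:72418087-72426457), had 1680, 1347, 1537 and 1398 in KO and 1324, 1268, 1139 and 1439 in WT, with 0.21 ± 0.09 (adjusted p = 0.631). Exons of Tssk6 on the opposite strand cover 30.2% of its transcript. Ndufa3 (chr7:3568975-3571765), whose transcript is the shortest of all members, had 1036, 847, 1040 and 883 in KO and 802, 853, 756 and 926 in WT, with 0.19 ± 0.09 (adjusted p = 0.646). For both, WT R4 lay above KO R2 and R4.

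Other members of the proximal arm did not follow. Ndufa10, a large subunit related to nucleoside kinases, had 2146, 2334, 2281 and 2397 in KO and 2379, 2343, 2188 and 2542 in WT (log2 fold change -0.04 ± 0.06, adjusted p = 0.903). Ndufa11, the lowest accessory subunit per kilobase, had 1238, 1169, 1145 and 1166 in KO, inside the WT spread of 1172, 1112, 987 and 1287. Ndufa8 and Ndufs5, which are held by disulphides in the intermembrane space, had log2 fold changes of -0.01 and 0.03. Reads of Ndufs5 cannot be assigned with certainty, since another copy in the genome is 99.6% identical over 96% of the transcript.

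The distal membrane arm holds the Ndufb subunits beside subunits encoded by the mitochondrial genome. Ndufb1 had no row under that symbol, and 9 of the 10 other Ndufb subunits were higher in KO (median 0.14). The only members of the 42 whose genotypes did not overlap were 2 of these, Ndufb3 and Ndufb7. Both were higher in KO, a pattern seen in 2.64% of all genes tested in that direction. Ndufb3 (chr1:58643228-58652808), a small subunit of the arm, had 1195, 1093, 1174 and 1132 normalized counts in KO and 995, 997, 947 and 1025 in WT. Every KO library exceeded every WT library by at least the gap between 1093 and 1025, and the means were 1149 ± 45.4 and 991 ± 32.3 (SD), a 1.16-fold difference (log2 fold change 0.21 ± 0.05, adjusted p = 0.394). It ranked 75 of 12699 genes by p. A copy elsewhere in the genome matches 59.8% of its transcript at 95.2% identity.

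Ndufb7 (chr8:86090570-86095525), an intermembrane-space subunit, had 954, 965, 1038 and 978 in KO and 914, 920.1, 840.3 and 932 in WT. The genotypes were apart by the small step from 932 to 954, and the log2 fold change was 0.13 ± 0.06 (adjusted p = 0.651). With each library's trend with transcript length removed, it was 0.03 (adjusted p = 0.971). Ndufb5 (chr3:32635912-32650488) had 1914, 1628, 1793 and 1708 in KO and 1582, 1557, 1505 and 1723 in WT, with WT R4 above KO R2 and R4 and a log2 fold change of 0.15 ± 0.06 (adjusted p = 0.645). Ndufb10, which like Ndufb7 lies on the intermembrane side, had the opposite sign, with 1445, 1335, 1492 and 1462 in KO and 1554, 1557, 1320 and 1603 in WT. All 4 KO libraries fell between WT R3 and the other WT libraries, and the log2 fold change was -0.07 ± 0.07 (adjusted p = 0.854).

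Ndufab1, the mitochondrial acyl carrier protein, is present in both arms and also serves fatty acid synthesis outside the complex. It had 1193, 1099, 1016 and 915 in KO and 1012, 1017, 1186 and 1370 in WT, the lowest log2 fold change of all members (-0.12 ± 0.11, adjusted p = 0.852). The libraries were ordered unlike those of the other subunits, with WT R3 among the highest.

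**Figure D3:**
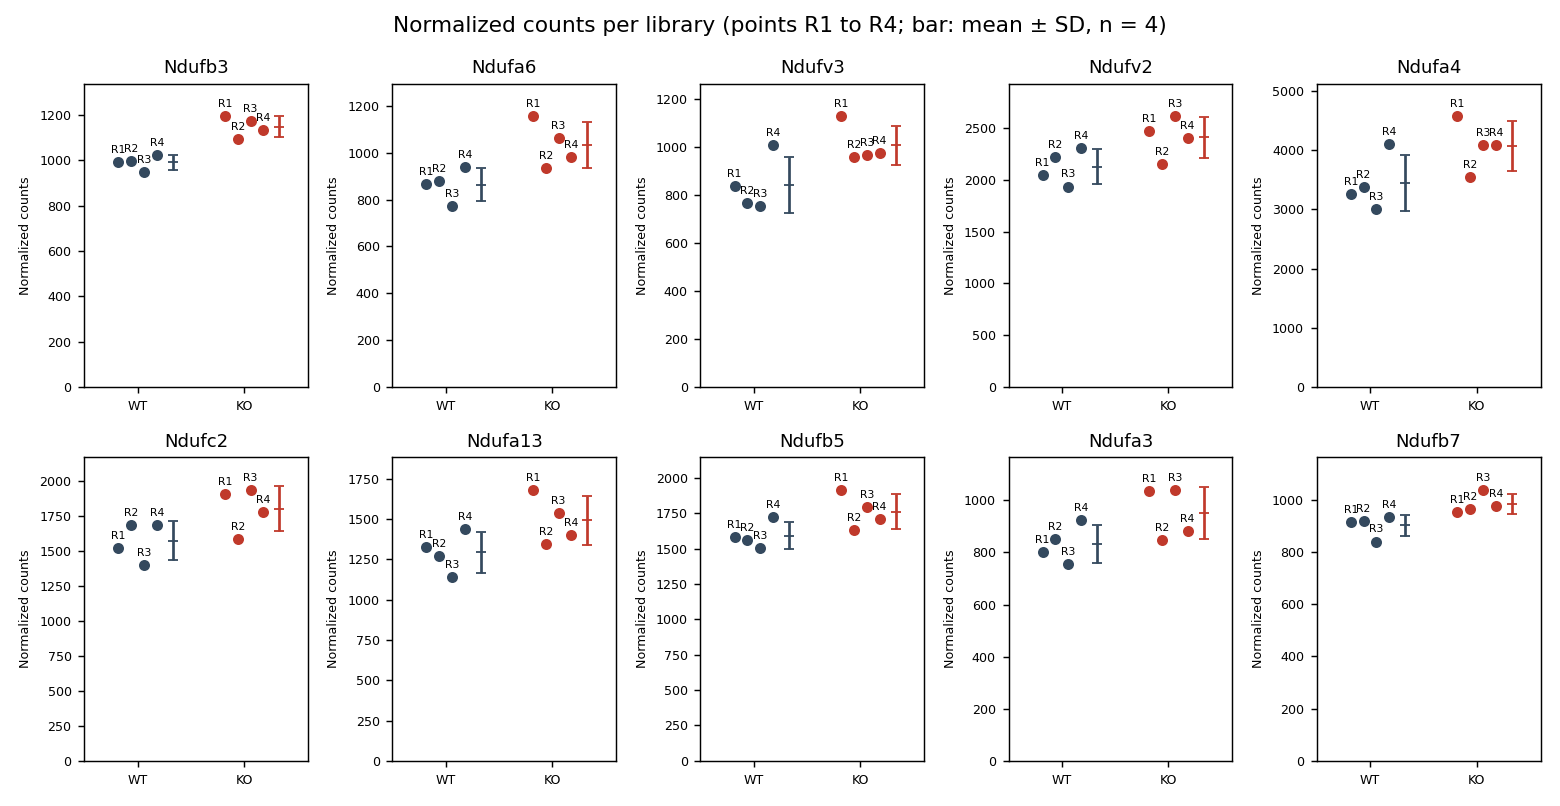
Normalized counts in each library (points, labelled R1 to R4) for the 9 genes with an unadjusted p under 0.05 and for Ndufb7, with mean and SD beside them; each axis starts at 0. Ndufb3 and Ndufb7 are the panels in which no WT point reaches a KO point, and WT R4 is the highest WT library, or within a few counts of it, in all panels.

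Of the assembly factors, 3 of 4 were higher in KO, with a median log2 fold change of 0.10, and none passed a p of 0.05. Ndufaf2, a paralog of the subunit Ndufa12 that takes its place during assembly, had 552, 573, 607 and 548 in KO and 545, 494, 485 and 578 in WT (log2 fold change 0.12 ± 0.08, adjusted p = 0.778). Ndufaf4, which acts with Ndufaf3 on the quinone module, had 279, 252, 252 and 227 in KO and 227, 234, 247 and 236 in WT, with 0.09 ± 0.09 (adjusted p = 0.854). Ndufaf1, which works on the membrane arm, had 261, 258, 248 and 283 in KO, inside the WT spread of 247, 292, 223 and 312, with a log2 fold change of -0.03.

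Ndufaf5 to Ndufaf8 are in the table under older symbols and so are not among the 42 genes. With these 4 the median of the assembly factors was 0.05, and 5 of 8 were higher. Ndufaf7, a mitochondrial methyltransferase, was the one whose genotypes did not overlap, with 859.7, 992.8, 952 and 952 in KO and 1045, 1024, 993.5 and 1017 in WT, and it was lower in KO (log2 fold change -0.12 ± 0.06, adjusted p = 0.688). KO R2 and WT R3 differed there by under 1 count. Of 11 tested assembly genes with other names, 3 were higher in KO (median -0.06). Aifm1, the apoptosis-inducing factor that also aids import of respiratory chain subunits, was lower in KO without overlap, with 948, 1020, 1038 and 939 in KO and 1066, 1172, 1098 and 1069 in WT (log2 fold change -0.16 ± 0.06, adjusted p = 0.592). Genotypes without overlap and lower in KO made up 1.85% of all genes tested.

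Ndufa4 (chr6:11850373-11857446) had 4570, 3543, 4087 and 4088 normalized counts in KO and 3264, 3383, 3002 and 4104 in WT. WT R4 was above KO R2, R3 and R4, and the log2 fold change was 0.25 ± 0.10 (adjusted p = 0.629). Ndufa4l2 had 80.7, 45.6, 43.9 and 49.9 in KO and 50.4, 46.4, 43.6 and 40.5 in WT. Only KO R1 stood above the WT spread, the library with the high meningeal and endothelial markers, and the log2 fold change of 0.26 ± 0.22 (adjusted p = 0.843) became 0.04 without it.

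Ndufs7, Ndufa12 and Ndufa4l2 share chromosome 10 with Nuak1, at 4.11, 9.76 and 43.1 Mb from it, and had log2 fold changes of 0.02, 0.09 and 0.26. None of them passed a p of 0.05.

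The subunits encoded by the mitochondrial genome complete the core of the membrane arm, and 5 of 7 were tested. All 5 were higher in KO, with a median log2 fold change of 0.18. Of them mt-Nd1, mt-Nd4 and mt-Nd5 passed a p of 0.05 before adjustment, against 4.51% of all genes tested in that direction. The number that passed was 1 with the trend of each library with transcript length removed (3.68% of all genes higher in KO). It was 0 with the trend with GC content removed (533 of 12699 genes), 0 without KO R4 (488 of 12638) and 0 without WT R3 (2.98%). The median was 0.10 with the GC trend removed, where mt-Nd4 was at 0.03 and mt-Nd2 at 0.02, and all 5 log2 fold changes were above 0 in each of these fits. mt-Nd1 had 2427, 2367, 2521 and 2795 normalized counts in KO and 2503, 2182, 1862 and 1961 in WT, with WT R1 inside the KO range (0.25 ± 0.09, adjusted p = 0.584). mt-Nd4 had 23050, 21470, 22560 and 23350 in KO and 19980, 21980, 19240 and 21500 in WT, with KO R2 below WT R2 and R4 (0.13 ± 0.06, adjusted p = 0.646). mt-Nd5 had 17620, 16120, 17710 and 19310 in KO and 15790, 15610, 14390 and 16570 in WT, with KO R2 alone below the highest WT library (0.18 ± 0.07, adjusted p = 0.571).

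The remaining tested mitochondrial genes did not pass before adjustment. mt-Nd2 had 506, 604, 544 and 544 in KO and 588, 514, 465 and 454 in WT (0.11 ± 0.09), and mt-Nd3 had 189.6, 137, 206 and 175 in KO and 163, 138, 114 and 160.5 in WT (0.31 ± 0.15). Nuclear copies exist for mt-Nd3 (99.1% of the transcript at 100% identity), mt-Nd4 (63.6% at 100%) and mt-Nd5 (52.4% at 95.2%). Reads from these stretches may thus be hard to assign, most of all for mt-Nd3, which was not measured. The median log2 fold changes of the other complexes were 0.03 for complex II (2 of 4 higher), 0.09 for the nuclear subunits of complex III (7 of 9), 0.09 for complex IV (9 of 13) and 0.09 for complex V (11 of 14). Members of each passed a p of 0.05 before adjustment, all higher in KO, against 4.51% of all genes tested in that direction. They numbered 1 of 4 in complex II, 1 of 9 in complex III, 4 of 13 in complex IV and 2 of 14 in complex V. These genes had adjusted p-values from 0.551 to 0.646. They were Sdhd (0.16 ± 0.07) of complex II, Uqcrb (0.25 ± 0.10) of complex III, Cox7a2 (0.27 ± 0.09), Cox7c (0.26 ± 0.09), Cox7b (0.20 ± 0.08) and Cox6b1 (0.20 ± 0.08) of complex IV, and Atp5j2 (0.23 ± 0.10) and Atp5l (0.21 ± 0.09) of complex V.

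Over the subunits as a group, the libraries of the genotypes overlapped. The median deviation of the 36 subunits from each gene's mean was 0.13 in KO R1, -0.04 in KO R2, 0.12 in KO R3 and 0.02 in KO R4 on the log2 scale, and -0.06, -0.06, -0.18 and 0.10 in WT R1 to R4, which gives means of 0.06 ± 0.08 in KO and -0.05 ± 0.11 in WT (SD, n = 4). WT R4 was thus above KO R2 and R4, and WT R3 was below all others. WT R3 was the lowest of the 8 libraries for 27 of 36 subunits and WT R4 the highest WT library for 31, while KO R2 was the lowest KO library for 27. Over all 12699 genes the same medians stayed between -0.004 and 0.016. Reads of the 36 subunits made up 0.318 ± 0.0166% of a KO library and 0.3 ± 0.0226% of a WT library (SD, n = 4).

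**Figure D4:**
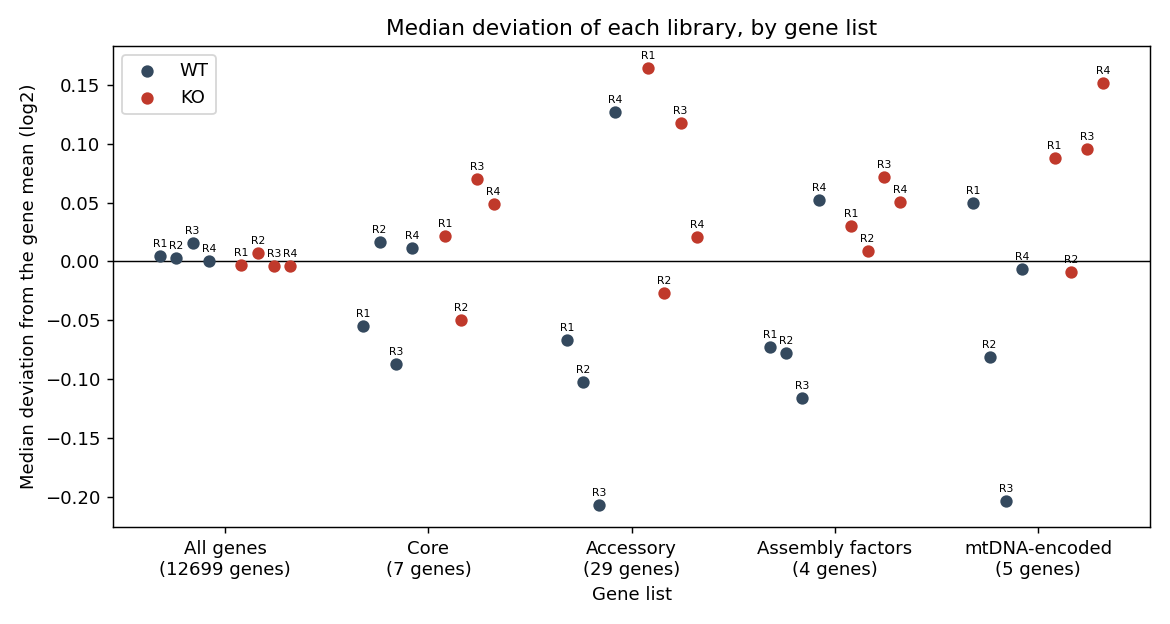
Median over a gene list of each library's log2 deviation from the gene mean, for all genes tested and for 4 lists of complex I genes (points: libraries R1 to R4 of each genotype). For the 29 accessory subunits WT R4, at 0.13, lies among the KO points while WT R3, at -0.21, lies far below the other WT libraries; all genes together stay near 0.

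The number of members past a p of 0.05 therefore turned on single libraries. It was 25 of 42 without WT R4 (7.05% of all genes higher in KO at that p), 15 without KO R2 (5.89%), 4 without WT R2 (4.27%), 3 without KO R1 (3.17%), KO R3 (3.22%) or WT R1 (3.3%), and 2 without WT R3 (2.98%). Ndufa6 and Ndufb3 passed in each of these fits. The median of the subunits stayed positive, between 0.09 without WT R3 and 0.18 without WT R4. Without KO R1, the library with the meningeal markers, it was 0.11, with 31 of 36 subunits higher.

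Complex I transcripts are short, with a median of 934 bases over the members against 2846 over all genes with a length, and fold changes in these libraries varied with length. Across genes, Pearson's r between log2 fold change and log2 length was -0.11 over 12287 genes and -0.33 over the 42 members, as a description of genes that share the same 8 libraries. Fold changes varied with level too. With log2 WT level r was -0.105 over the 12287 genes and -0.22 over the members. Over the 36 subunits it was -0.37, against -0.31 with length. The WT level is itself part of the fold change, and a trend with level was not removed in any fit. All 10 of the shortest subunits were higher in KO (median 0.15), as were 6 of the 10 longest (median 0.07). When each library's trend with length was removed, the median of the subunits fell to 0.05, with 25 of 36 higher in KO, that of the core subunits to -0.02 with 3 of 7 higher, and that of the mitochondrially encoded subunits to 0.15, against 0.10 with the GC trend removed. In the fit with the length trend removed, 6 members passed a p of 0.05 higher in KO (3.68% of all genes). They were Ndufb3, Ndufa6, Ndufv3, Ndufv2, Ndufa4 and Ndufa13, and the log2 fold change of Ndufb3 was 0.13. Ndufc2 (0.11), Ndufb5 (0.10) and Ndufa3 (0.04) no longer passed. Ndufb10 passed lower, and no share of all genes was obtained for that direction in that fit.

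**Figure D5:**
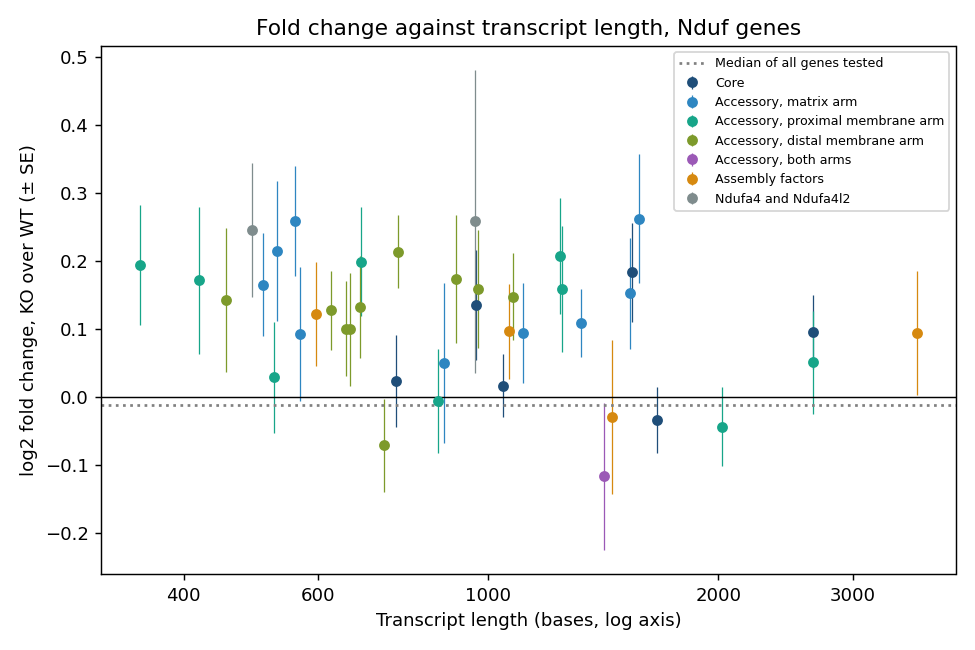
Log2 fold change of KO over WT (± SE) against transcript length in bases (log axis) for 41 of the 42 genes, coloured by role, with the median of all genes tested as a dotted line. The 10 shortest subunits are all above 0 with a median of 0.15. Of the 10 longest, 6 are above 0 with a median of 0.07, and they include the highest and the lowest subunit, Ndufv3 and Ndufab1.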

How the data were processed

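Poly-A RNA of 8 cortices, 4 per genotype, was sequenced as paired reads with a stranded kit. Before deposit, the authors cut adapters and low-quality bases (Cutadapt 1.13, Prinseq), aligned to the mm9 assembly (TopHat2 2.0.13, SAMtools 0.1.19) and obtained gene counts by HTSeq-count. The deposited values are whole-number counts with no normalization. The use of strand in counting is not given in the sources used here, so overlapping genes may share reads. All count columns were used (0 were not).

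Counts were tested for genotype in R 4.3.3 with edgeR 4.0.16 (filterByExpr, TMM, quasi-likelihood F test), adjusted by Benjamini-Hochberg over 12699 genes, and DESeq2 1.42.0 served as an alternative. The p-values quoted are from edgeR unless DESeq2 is named. Standard errors were obtained as the absolute log2 fold change over the root of the F statistic. Normalized counts were scaled to the mean effective library size. Positions and lengths (the transcript with the longest coding sequence) are from GENCODE vM1 on NCBIM37, the same build as mm9, and genomic copies were sought with blastn 2.17.0 at 95% identity over 50% of the transcript. The scripts were tested on simulated data.

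Values by library are given for core subunits (1 member is counted in lists but not reported here), members past a p of 0.05 or without overlap between genotypes, the 3 largest and 3 smallest fold changes, Ndufa4, Ndufa4l2, the extremes per kilobase in each role and the mitochondrially encoded subunits. Of other lists, genes of the respiratory chain and of complex I assembly past a p of 0.05 were named, and Ndufaf7 was named after its values were seen. The members and lists were chosen with earlier results of these data known. The labels describe separate embryos, and p-values measure the spread between these libraries. The replicates of a genotype differed by more than sampling noise (chi-square per degree of freedom at least 5.92). Cultured neurons of the study were not analysed here.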

Additional observations from a re-analysis of the deposited data

Results flagged for a closer look

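In groups of 4 libraries, a library far from the other 3 was sought by the gap to its nearest neighbour over the whole range, against the 95% critical value of Dixon. Of 114 groups examined, 3 passed, where chance flags about 1 in 20, or 5.7. Ndufa2 had 935.7 normalized counts in WT R4, above the other WT libraries. Ndufa4l2 had 80.7 in KO R1, the library with high meningeal and endothelial markers, and Ndufv3 had 1130 in KO R1. The part of these markers in either value was not tested.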

How the results depend on the processing

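No paired analysis was possible because the count columns carry no litter, embryo or sex, so no replicate block was fitted. In every alternative 0 members passed an adjusted p of 0.05, and the medians of the subunits and the assembly factors stayed above 0. Genes called among all tested numbered 9, 65 with DESeq2 and 2 to 11 with a library left out. With the length trend removed, 0 members passed both the p and the fold threshold, 5 had genotypes without overlap and the median of the assembly factors was 0.0346; with the GC trend removed, an alternative chosen after seeing the data, 5 had no overlap. With a library left out, 2 to 25 members passed a p of 0.05, 0 to 7 passed both thresholds and 2 to 16 had no overlap. Groups with fewer libraries lack overlap more often by chance. For these alternatives no share of all genes was obtained for the overlap counts or for both thresholds, so these counts describe the members only. Counting Ndufa4 and Ndufa4l2 as subunits (median 0.13) and the older symbols as assembly factors (0.05) were also chosen after seeing the data.

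Signs reversed only for genes with log2 fold changes under 0.1, and the cause was not tested. Ndufa8 became 0.00286 with upper-quartile factors, 0.00259 without the filter and 0.000696 with at least 10 counts. With the length trend removed Ndufs3 was -0.0344, Ndufs5 -0.0841, Ndufs6 -0.0146, Ndufa5 -0.0118 and Ndufs7 -0.0565. With a library left out the ranges were -0.0766 to 0.0357 for Ndufa8, -0.0566 to 0.00302 for Ndufv1, -0.0240 to 0.0987 for Ndufs5, -0.102 to 0.0494 for Ndufaf1, -0.0125 to 0.186 for Ndufa5, -0.00624 to 0.117 for Ndufa11 and -0.0137 to 0.0744 for Ndufs7. Subunits had 573 or more normalized WT counts, whereas Ndufa4l2 had 45.2, where counting error weighs more.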
